A study of Rattus norvegicus with 3 samples.

Results

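Genes associated with astrocytes, 10 in number, were examined for binding by Seh1 in cells of the oligodendrocyte lineage. They were Vim, Gfap, Apoe, Acsbg1, Aqp4, Glul, Slc1a2, Slc1a3, Aldh1l1 and Sox9, and not all of them are particular to astrocytes. The members are the peaks of oligodendrocyte progenitor cells (OPC) whose nearest gene, in the authors' annotated table, is 1 of these 10 genes. There were 18 such peaks among 9084 annotated OPC peaks, and they belonged to 7 of the 10 genes. Slc1a2, Slc1a3 and Aldh1l1 had no peak. The genes were chosen by the nearest gene, class and distance of these same OPC peaks, so every count of OPC peaks below describes them and tests nothing.

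The peaks come from chromatin immunoprecipitation and sequencing (ChIP-seq) with an antibody to Seh1, 1 library per group. Cultures were made from forebrain of Sprague Dawley rat pups aged 1 to 2 days after birth. The OPC group grew with PDGF-AA, CNTF, bFGF and NT3. The immature oligodendrocyte group (iOL) had 1 day of triiodothyronine (T3) at 60 nM, with PDGF-AA, bFGF and NT3 withdrawn. The library of IgG on iOL was not analysed here, although the header of the annotated table names it beside OPC, as the likely background of the OPC peaks. There were 9117 OPC peaks, each 205 bp wide, and 6704 iOL peaks, each 209 bp wide. The depth is unknown, as no source used here gives read totals. With 1 library per stage there is no replicate error: the values compare peak lists, not stages. Peak lists hold no expression values, so neither transcription of these genes nor the share of astrocytes in the cultures was measured.

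Seh1 is a subunit of the Y complex, a part of the ring-shaped scaffold of the nuclear pore, and some nucleoporins also contact chromatin. Astrocytes and oligodendrocytes both derive from neural progenitors, and OPC share a number of genes with astrocytes. Sox9 specifies glia early and is later kept in astrocytes. Vimentin and GFAP build the astrocyte's intermediate filaments, while the remaining genes serve lipid transport, water flow, glutamate clearance and folate metabolism.

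Each peak has a score from the authors' peak caller, which lies on whole multiples of 0.638, to within 0.0042 below a score of 10. A step is 1 such multiple, and the median of all annotated OPC peaks was 7.66, or 12 steps. The caller also gives a focus ratio, a fraction that describes how tightly reads are placed about the peak's centre, with a median of 0.778 over all peaks. Distances run from the transcription start site (TSS) to the peak's centre, positive in the direction of transcription. Coordinates of peaks are on rat build rn6.

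Having a peak is common: 30.1% of 18539 protein-coding genes were the nearest gene of at least 1 OPC peak, against 7 of these 10. At least 2 peaks were found for 5 of the 10, Vim, Acsbg1, Aqp4, Glul and Sox9, and for 10.4% of coding genes. A peak within 10 kb of the TSS was found for 6 of the 10, the 7 genes with peaks except Gfap, and for 11.1% of coding genes. An exon peak was found for 5 of the 10, Vim, Apoe, Aqp4, Glul and Sox9, and for 3.12% of coding genes. By peaks, 6 of the 18 lay in exons, 3 in introns and 9 between genes, where 6.8% of all annotated peaks lay in exons (95% exact binomial interval 6.29 to 7.34%, counting error only). The exon class of HOMER, the program that annotated the peaks, refers in its usual setting to coding exons. No member peak was in the promoter class, which held 4.02% of all peaks.

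**Figure D1:**
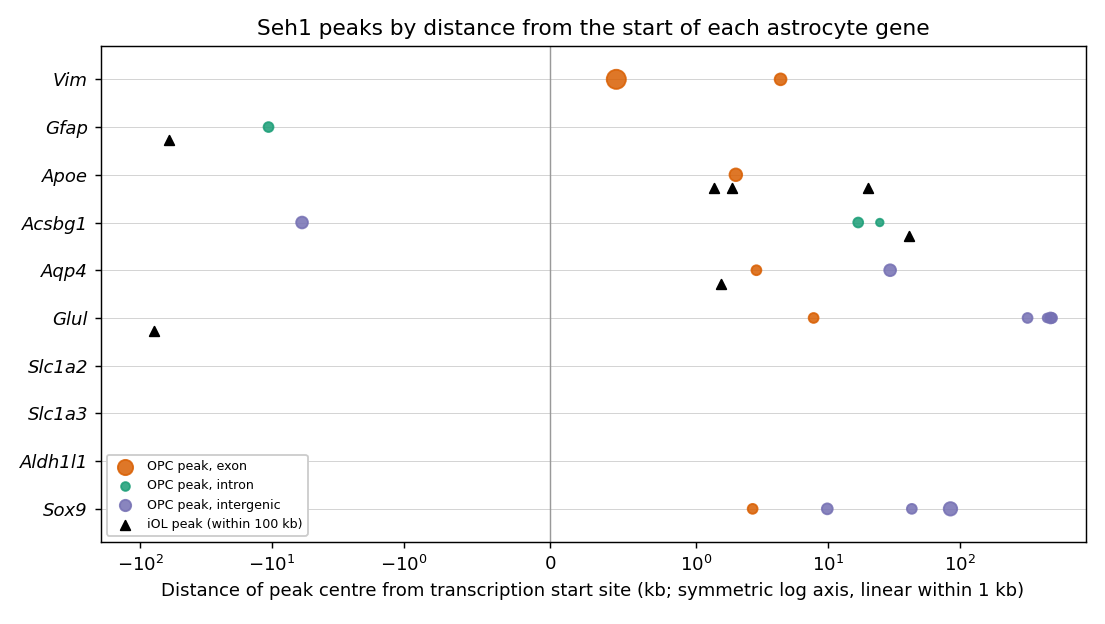
Distance in kb (symmetric log axis) from the TSS to the centre of each OPC peak (circles, coloured by class, area growing with score) and of each iOL peak within 100 kb of a TSS (triangles, drawn below the line of the gene) for the 10 genes. Exon peaks lie from 0.453 to 7.764 kb downstream, and 3 genes have no circle.

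Both filament genes had OPC peaks, but only Vim had them inside the gene. The stronger of the Vim peaks lay in exon 1 of 9 (chromosome 17, 80883066 to 80883270), with its centre at 453 bp and its edges at 351 and 555 bp from the TSS. Its score was 15.3, or 24 steps. That is the highest of the 18, the next being 9.58, and 70 of all 9084 peaks (0.771%) scored at least as high. Among the 618 exon peaks of the whole list it was the third. Its focus ratio was 0.568, the lowest of the 18, and 1.27% of all peaks had a ratio that low. The other Vim peak lay in exon 4 of 9 (80886972 to 80887176) at 4359 bp, with a score of 8.3, or 13 steps, and a focus ratio of 0.722.

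Gfap, the filament gene that marks mature and reactive astrocytes, had a single peak, upstream at -10610 bp (chromosome 10, 91009943 to 91010147). It lay in intron 13 of 15 of the neighbouring gene Kif18b, a mitotic kinesin, so the tie to Gfap is by distance alone. Its score of 7.02, or 11 steps, was 1 step below the median of all peaks, and its focus ratio was 0.778.

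The start regions of the filament genes are shown because neither held a peak, although the strongest member peak began 351 bp into Vim. The 250 bases upstream of each start come from RefSeq on build GRCr8, not the build of the peaks, with CpG dinucleotides in capitals. Vim (plus strand) is chr17:81577011-81577260 and Gfap (minus strand) is chr10:88361662-88361911.
Vim: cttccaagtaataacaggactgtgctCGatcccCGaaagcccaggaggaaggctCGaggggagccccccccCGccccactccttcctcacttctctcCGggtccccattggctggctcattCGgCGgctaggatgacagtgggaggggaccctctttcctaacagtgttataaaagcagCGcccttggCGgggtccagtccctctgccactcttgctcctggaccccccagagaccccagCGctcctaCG
Gfap: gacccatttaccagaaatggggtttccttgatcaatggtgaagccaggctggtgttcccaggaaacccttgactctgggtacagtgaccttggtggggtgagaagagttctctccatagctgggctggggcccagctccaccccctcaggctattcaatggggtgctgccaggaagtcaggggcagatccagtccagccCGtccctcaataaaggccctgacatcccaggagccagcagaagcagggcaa
The Vim stretch holds 11 CpG and the Gfap stretch 1. At least 11 CpG were found in 33.6% of 33469 upstream stretches of the same length, and at least 1 in 92.2%. Sequence under the peaks themselves was not analysed here.

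Of the lipid genes, Apoe had 1 peak and Acsbg1 had 3. Apoe encodes the main lipid carrier that astrocytes secrete. Its OPC peak lay in exon 4 of 4 (chromosome 1, 80613429 to 80613633) at 1994 bp, with a score of 8.94, or 14 steps, and a focus ratio of 0.783. Of all peaks 16.2% scored at least as high. Acsbg1 encodes an acyl-CoA synthetase for long fatty acids. Its upstream peak at -5905 bp (chromosome 8, 59245757 to 59245961) lay in an LTR repeat and scored 8.3, with a focus ratio of 0.933. Its peaks in intron 1 of 13 at 16935 bp (59222917 to 59223121) and in intron 2 of 13 at 24696 bp (59215156 to 59215360) scored 7.02 and 5.75. The last, at 9 steps, was the weakest of the 18, and 1 of the 9084 peaks scored lower.

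Aqp4, the water channel of astrocyte endfeet, had 2 OPC peaks. One lay in exon 2 of 5 of a transcript (chromosome 18, 6778882 to 6779086) at 2857 bp, with a score of 7.02 and a focus ratio of 0.8. The other lay between genes at 29592 bp (6752147 to 6752351), in a repeat, with a score of 8.3 and a focus ratio of 0.696. Here the exon peak scored 2 steps lower, a small difference in this list.

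Among the genes of glutamate handling, Glul had peaks and both transporter genes had none. Glul encodes glutamine synthetase, which turns glutamate taken up from synapses into glutamine. Its exon peak lay in exon 7 of 7 (chromosome 13, 71338714 to 71338918) at 7764 bp, with a score of 7.02 and a focus ratio of 0.857. The other 4 Glul peaks lay between genes, 326.9 to 501.8 kb downstream, with scores of 6.38 to 7.66. Of these 4, 3 lay in LINE repeats and the fourth, at 326.9 kb (71657861 to 71658065), in a CpG island. These far peaks name Glul only because no other start was nearer.

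Slc1a2 and Slc1a3 encode GLT-1 and GLAST, the main glutamate transporters of astrocytes, and Aldh1l1 encodes a folate enzyme used as a pan-astrocyte marker. None of the 3 was the nearest gene of an OPC peak. Nor was any OPC peak annotated to an exon, intron, UTR, promoter or end of their transcripts, counting the 93.7% of such annotations whose transcript could be matched to a gene.

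Sox9 had 4 OPC peaks on chromosome 10, all downstream of its TSS. They lay in exon 3 of 3 at 2674 bp (101291100 to 101291304) and between genes at 9861 bp (101298287 to 101298491), 43221 bp (101331647 to 101331851) and 84939 bp (101373365 to 101373569). Their scores, in the same order, were 7.02, 7.66, 7.02 and 9.58, and their focus ratios 0.875, 0.632, 0.857 and 0.9. The farthest peak was thus the strongest, at 15 steps, and 8.99% of all peaks scored at least as high. Sox9 had no peak in an annotated repeat, and neither had Gfap. The Vim and Apoe peaks lay in exons, and no exon peak of the list carries a repeat label. No OPC peak within 100 kb of the Sox9 TSS belonged to another gene, which held for every member with a peak except Gfap.

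Most of the 18 peaks were of ordinary strength for this list. Their median score was 7.02, or 11 steps, against 7.66 for all annotated peaks, and 8 of 18 reached 7.66 where 51.9% of all peaks did. The 6 exon peaks ranged from 7.02 to 15.3 with a median of 7.66, which equals the median of all 618 exon peaks. Those of Aqp4, Glul and Sox9 all stood at 7.02, so the exon peaks are not a strong set apart from Vim and, less so, Apoe. Repeats held 5 of the 18 peaks (3 of Glul, 1 of Acsbg1, 1 of Aqp4) and 33.2% of all peaks. None of the exon peaks was annotated to a repeat, but none of the 618 exon peaks of the authors' table carries a repeat label.

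**Figure D2:**
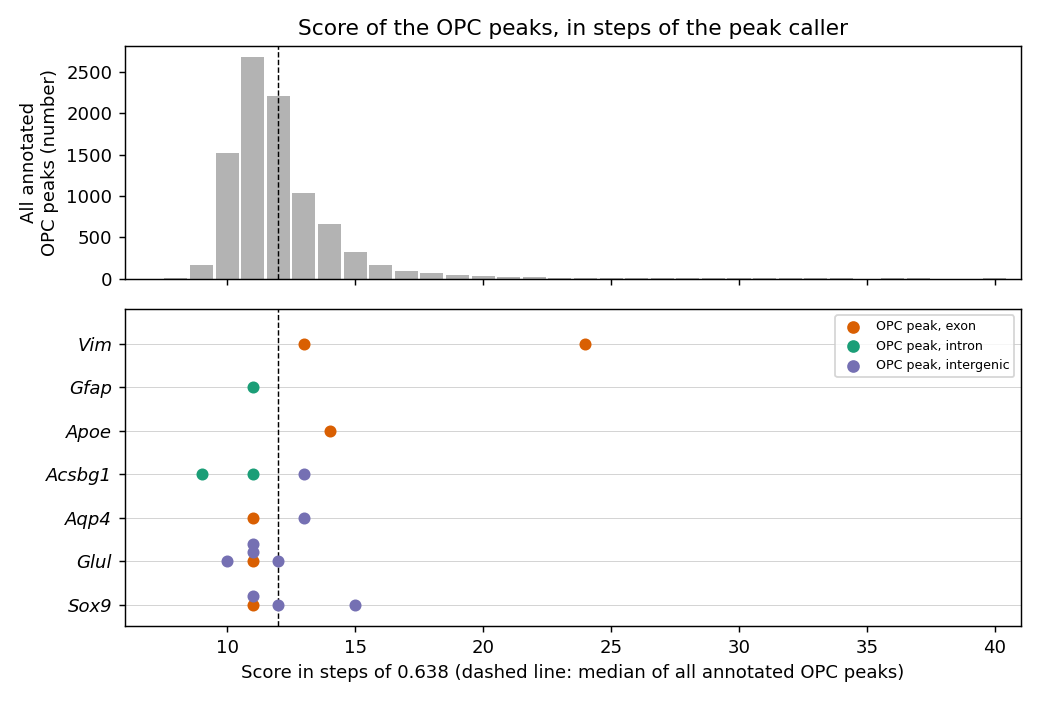
Score of OPC peaks in steps of 0.638. The upper panel counts all annotated OPC peaks up to 40 steps and the lower panel shows each peak of the 7 genes, coloured by class, with points of equal score stacked. The exon 1 peak of Vim stands at 24 steps and the other 17 peaks at 9 to 15, around the median of 12 (dashed line).

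The peaks lay mostly downstream of the TSS, 16 of 18, where 57.6% of all annotated peaks were downstream. Upstream were the Gfap peak and 1 Acsbg1 peak. The median distance, regardless of direction, was 13.8 kb against 34.8 kb for all peaks. Because the genes were picked with near peaks in view, these values carry no weight of their own. The authors' table also gives classes with the promoter extended downstream. With an extension of 1 kb the Vim exon 1 peak became a promoter peak, with 2 kb also the Apoe peak, and with 5 kb 5 of the 6 exon peaks, all but that of Glul. Of all annotated peaks these settings put 12.2%, 13.3% and 16.8% in the promoter class.

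The iOL list, which the choice of peaks by nearest gene did not use directly, differed among the genes. One of the 18 OPC peaks overlapped an iOL peak, that of Apoe, against 1.73% of all annotated OPC peaks. The iOL peak (80613548 to 80613756) shared 86 bp with the OPC peak, 42.0% of its length, so the overlap is lost when at least 50% is required. A second iOL peak in Apoe (80614068 to 80614276) lay 434 bp beyond the OPC peak towards the TSS. The centres of these iOL peaks were 1873 and 1353 bp from the TSS. Another iOL peak lay 20.1 kb from it (80595367 to 80595575). The strand of Apoe, and that of Gfap, was taken from GRCr8, since 1 peak does not fix it.

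Counting gaps of up to 10 kb, 4 of the 18 OPC peaks had an iOL peak overlapping or near, against 10.3% of all annotated OPC peaks. These were the Apoe peak, the Aqp4 exon peak and 2 of the far Glul peaks, and they faced 4 iOL peaks. In Aqp4 the iOL peak (6780211 to 6780419) was centred 1526 bp from the TSS, between the TSS and the OPC exon peak, with a gap of 1124 bp. Near Glul a single iOL peak (71824417 to 71824625) lay between the OPC peaks at 488.7 and 501.8 kb, with gaps of 4.54 and 8.09 kb. The gap of 8.09 kb was the widest inside the limit, and the narrowest outside was 16.2 kb, from the second-intron peak of Acsbg1 to an iOL peak at 41.1 kb from the Acsbg1 TSS (59198739 to 59198947).

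Vim, Sox9, Gfap and Acsbg1 had no iOL peak within 10 kb of any of their OPC peaks. Of all annotated OPC peaks 10.3% had one, so lacking one is common. The gaps were 679.6 and 675.7 kb for Vim, 132.2 to 214.5 kb for Sox9 and 16.2 to 46.8 kb for Acsbg1. Over all annotated OPC peaks the median was 88.3 kb and the quartiles were 31.1 and 210.5 kb. Most Sox9 gaps lay between these quartiles. The strongest OPC peak of the set had the widest gap, but both Vim peaks faced the same iOL peak. The next strongest, scoring 9.58 at Sox9 and 8.94 at Apoe, had gaps of 132.2 kb and 0. The Gfap peak and the Glul exon peak lay 49.2 and 86.5 kb from an iOL peak. Over the 18 peaks the median gap was 48.0 kb. Peaks of 1 gene share their surroundings, so these are not 18 independent gaps. A missing iOL peak does not show that binding was absent there, since the depth of the iOL library is unknown.

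**Figure D3:**
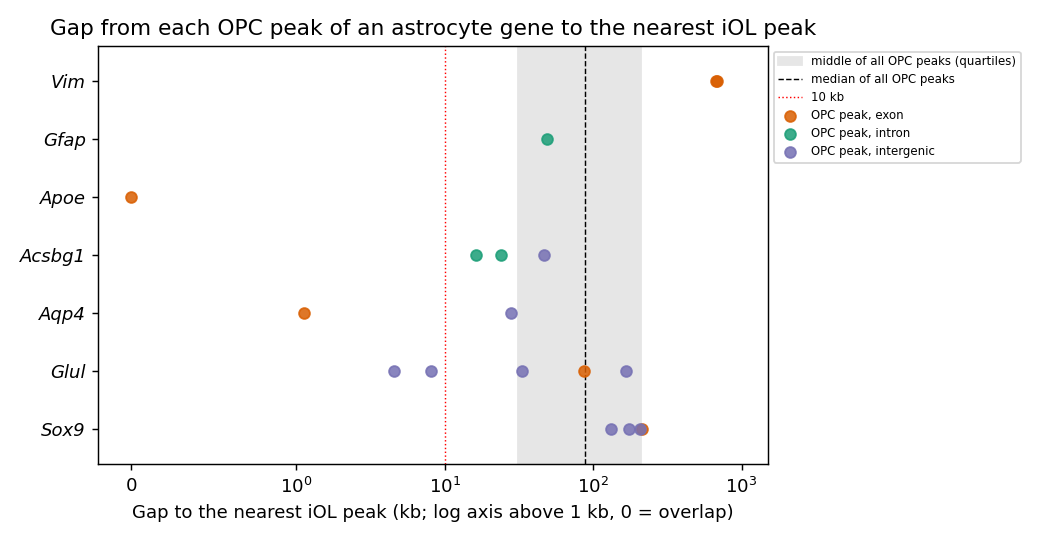
Gap in kb (log axis above 1 kb, 0 for an overlap) from each of the 18 OPC peaks to the nearest iOL peak, by gene and coloured by class. The grey band spans the quartiles of all annotated OPC peaks, the dashed line is their median of 88.3 kb and the dotted line marks 10 kb. Apoe stands at 0, the Aqp4 exon peak at 1.124 kb, and both Vim peaks, drawn on top of each other, at 675.7 and 679.6 kb.

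Another 54 genes of astrocyte biology were examined by role, and 23 of them (42.6%) had an OPC peak, against the same 30.1% of coding genes, of which 52 of the 54 are part. Only 3 of the 54 had a peak within 10 kb of the TSS, against 11.1% of coding genes. These were Synm, the filament protein synemin, at 8475 bp in an intron (score 7.66), Lhx2, a transcription factor of forebrain progenitors, at -259 bp in the promoter (7.66), and Fgfr3, a receptor of astrocytes and their precursors. Fgfr3 had intron peaks at 1174 bp, in a CpG island (score 7.66), and at 9177 bp (8.3), and another at 21536 bp (7.66) in exon 13 of 14 of the neighbouring gene Letm1. A peak nearest to S100b, a calcium-binding marker, was in the 3' UTR of the neighbour Dip2a at 15428 bp (score 6.38). Counting peaks by the transcript they lie in, whatever gene was nearest, 0 OPC peaks lay in an exon of the 54 genes, among the 93.7% of such annotations matched to a gene, while 5 of the 10 members had one. By nearest gene, 3.12% of coding genes had an exon peak, a share that gives few genes among 54. The share by transcript was not computed. The contrast with the members follows their choice and was not tested. Counting by transcript also added 2 peaks in intron 2 of 9 of Nfix, a transcription factor of gliogenesis, whose nearest TSS was that of Lyl1 (scores 7.02 and 7.66). These were picked out after their values were seen.

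By role, peaks were found for 3 of 3 genes of filaments and cytoskeleton (Nes, Synm and Ezr), 2 of 6 of glutamate and GABA handling and 3 of 8 of the endfoot. They were found for 2 of 7 genes of lipid metabolism, both gap junction genes, 1 of 5 of metabolism, 5 of 10 transcription factors and 5 of 13 receptors and secreted proteins. Of coding genes 30.1% had a peak, and each role holds few genes. The gap junction genes had 1 peak each, at 187.5 and -99.1 kb from the TSS and in repeats. The 35 peaks of these genes scored 6.38 to 10.2 with a median of 7.66, so none reached the Vim exon peak. One of the 35 overlapped an iOL peak, against 1.73% of all annotated OPC peaks, at -99.1 kb from the gap junction gene Gjb6 in a LINE repeat (score 7.02), by 138 bp. Of the 35 peaks 5 (14.3%) had an iOL peak overlapping or within 10 kb, against 10.3% of all annotated OPC peaks. Beside the Gjb6 peak, an intron 1 peak of the bicarbonate transporter gene Slc4a4 (46547 bp, score 8.94) lay 24 bp from an iOL peak, and a peak at -81.0 kb from F3, tissue factor, lay 565 bp from one. The other two peaks were those of Id3, an inhibitor of bHLH factors, at 24117 and 39753 bp, with gaps of 7057 and 3574 bp. Slc4a4, F3 and Id3 were picked out after their values were seen.

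**Figure D4:**
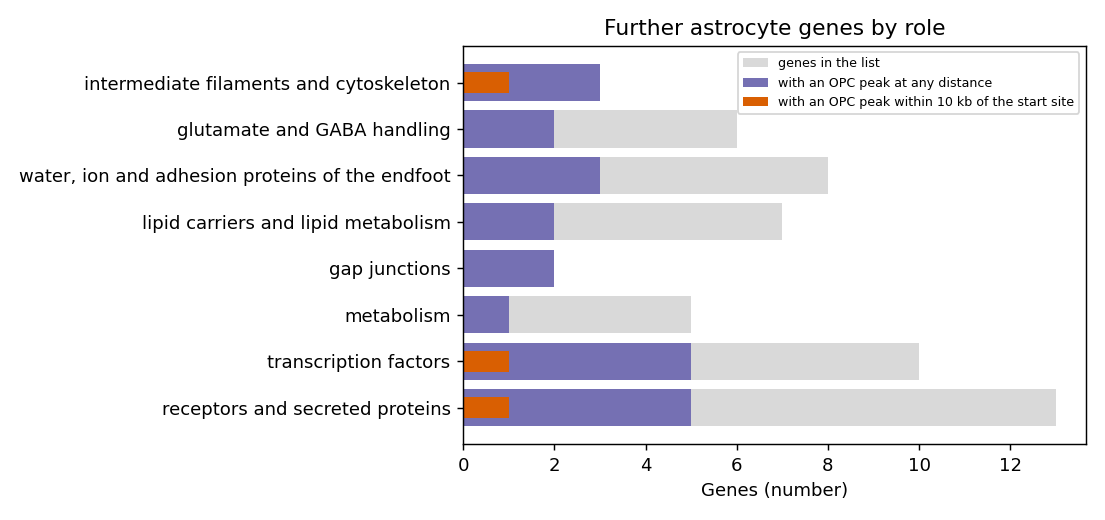
Number of further astrocyte genes per role (grey), those with an OPC peak at any distance (violet) and those with one within 10 kb of the TSS (orange). Peaks within 10 kb are found for 1 gene each of the filament, transcription factor and receptor roles, and peaks at any distance for 23 of the 54 genes.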

How the data were processed

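The authors deposited a list of peak positions per Seh1 library and 1 annotated table. The submitters' processing notes name Bowtie2 and HOMER, with builds rn6 and hg18, but no versions or roles. The annotated table is recorded under iOL, but per the file headers it was made by annotatePeaks.pl on rn6 from OPC peaks, and all 9084 intervals equal OPC intervals while 0 equal iOL intervals. The remaining 33 OPC peaks have no annotation. The score per peak and the focus ratio, a fraction, are the authors' values, and no source used here gives their normalization or threshold. A second class column that differed in 59.0% of rows was not used.

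Members were taken by gene name, and gene IDs gave the same rows. Coding genes are those of GRCr8 with a curated transcript. TSS positions came from the distances of the OPC peaks. Gaps and overlaps (at least 1 bp) to iOL peaks were computed in Python 3.11.15 with pandas 2.3.3 and tested on simulated data. Repeat, score and distance limits were varied as alternatives. Members and lists were chosen with earlier results of these data known. All 10 members are named, and further genes by a peak within 10 kb, in an exon, promoter or UTR, or overlapping an iOL peak. Nes, Ezr, Nfix, Slc4a4, F3 and Id3 are named outside this rule, after their values were seen. No test across genes was made.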

Additional observations from a re-analysis of the deposited data

How the results depend on the processing

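The count of 7 member genes with an OPC peak kept within 1.5 times under a score of at least the median (6 genes), a limit of 50 kb and the removal of repeats (7 each), while the share of all coding genes with a peak went from 30.1% to 18.8%, 22.1% and 22.7%. The distance and repeat alternatives could hardly lower the member count, so the held 7 carries no weight. The members were chosen with near and exon peaks in view, and no exon peak carries a repeat label. The median score stayed at 7.02 under both its alternatives. With only peaks at or above the median score, member peaks went from 18 to 8, member exon peaks from 6 to 3, and member peaks with an iOL peak within 10 kb from 4 to 2, since fewer peaks enter. An overlap of at least 50% left 0 overlapping peaks instead of 1. A gap limit of 50 kb raised the count from 4 to 10, while 34.9% of all peaks then qualified. Within 50 kb of the TSS, 15 further astrocyte genes had a peak instead of 23, with the same 22.1% of coding genes. No paired analysis was possible because each group has 1 library and no test was made. Depth is unknown, so how far it limits the iOL list was not measured.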

Other observations

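Among the 618 exon peaks of the OPC list, the Vim peak (score 15.3, 453 bp) was followed by 2 peaks of equal score, 14.7. One was a peak of Lmna, the gene of the nuclear lamins A and C, at 363 bp, and the other a peak of the DNA repair gene Rad54l at 17236 bp with a focus ratio of 0.743. Vim and Lmna belong to the intermediate filament family, and their peaks had focus ratios of 0.568 and 0.581, against a median of 0.762 over the exon peaks. The neurofilament genes Nefl and Nefh also had exon peaks near their TSS, at 104 bp (score 7.02, focus ratio 0.647) and at 236 bp (score 7.66, focus ratio 0.545). Of 15 filament genes listed after these values were seen, 11 had an OPC peak, against 30.1% of coding genes. An exon peak was found for 4, of which 3 are not Vim, against 3.12% of coding genes. The list included the members Vim and Gfap and held no keratin gene, so it is not the whole family. No test was made, since the list was chosen on these values. None of the peaks overlapped an iOL peak, where 1.73% of all annotated OPC peaks did. Des, Prph, Nefm and Ina had no peak. The nearest peaks of the remaining listed genes, none in an exon, had focus ratios on both sides of 0.762. These were 0.64 (Nes), 0.75 (Lmnb2), 0.762 (Bfsp1), 0.765 (Synm and Lmnb1), 0.778 (Gfap) and 0.917 (Bfsp2). A low ratio was thus not a trait of all listed genes. The filament exon peaks were not compared with exon peaks at a like distance from a TSS. Outside the family, exon peaks within 1 kb of a TSS and scoring at least 12.1 had ratios on both sides of 0.762. These were 0.628 (Ppm1d, 523 bp), 0.688 (Tesmin, 159 bp), 0.793 (Stk11, 994 bp) and 0.806 (Gata5, 564 bp). Whether the ratio goes with the family or with the position was not tested.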
